A study of Saccharum hybrid cultivar with 68 samples.

Results

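miR5381-z and miR5502-z are 2 of the 844 entries in a small RNA table from sugarcane, a hybrid of Saccharum grasses that stores sucrose in its stem. They were chosen by name, because their stem levels differed strongly between the genotypes ROC22 and GT86-887 and in opposite directions. miR5381-z was the lower one in ROC22 stem and miR5502-z the higher one. Since that contrast chose them, their stem levels by genotype, and the comparison of that difference with leaf, are given as descriptions without a test. The entries are called by their names in the table, apart from those whose names mark them as the authors' own predictions, which are called predicted entries and, where their sequence carries a result, identified by it. The 4 assembled transcripts (unigenes) that the degradome table pairs with miR5381-z were followed as well, of 100182 unigenes in the mRNA table. The degradome table lists no pair for miR5502-z.

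The series compared leaf and stem of 2 genotypes that its design text describes as contrasting in sucrose content, and asked about miRNA regulation of sugar metabolism. Neither the labels nor the design text say which of them is richer in sucrose. Small RNA was sequenced in 24 libraries, 3 for each of 8 groups, namely ROC22 and GT86-887 in stem and leaf at the late and the early stage of sucrose accumulation. Messenger RNA was sequenced in 36 libraries, 3 for each of 12 groups, with a middle stage between early and late. The degradome was sequenced in 8 libraries, a pair for each genotype and tissue. The labels give no treatment, plant age or pooling for any group, and they do not state that the 3 libraries of a group are separate plants, so each p-value speaks for library-to-library spread only, possibly technical. Summed over the 844 entries, stem small RNA libraries held 183654 to 1374497 tags and leaf ones 640674 to 1632186 tags. Summed over the unigenes, mRNA libraries held 17970015 to 24929466 reads. Tags and reads outside these features do not enter the sums. The unigenes carry no gene names, so the tissue labels could not be checked against marker genes. In bulk tissue, fewer cells that make an RNA and less of it per cell cannot be told apart.

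In plants, a Dicer-like enzyme cuts a miRNA from a folded precursor, and an ARGONAUTE protein then carries it to RNAs that match it nearly in full, many of which are cleaved inside the matching site. Typical miRNAs of this kind are 21 nt long. Plant RNAs of 24 nt are mostly small interfering RNAs, which are known for directing DNA methylation at repeats. The 5′ base of a small RNA influences which ARGONAUTE takes it up. Degradome sequencing reads the monophosphate 5′ ends of RNA fragments and so can catch the 3′ piece left by such a cut.

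The sequences are shown first because the members, their overlaps and their lengths are defined by them. Both were read 5′ to 3′ from the deposited table, which writes T for U, and the capitals mark the seed (bases 2 to 8).
miR5381-z: cAAGATCTgtggctccgaggt
miR5502-z: gATACGGAtaccggtacgcgatac
miR5381-z is 21 nt long and starts with C, as do 32 of the 844 entries. miR5502-z is 24 nt long and starts with G, as do 46 entries. No other entry had the seed of either. The word of 5 bases marked in the next line occurs 3 times in miR5502-z, and 21 of the 844 entries hold some word of 5 bases that often.
miR5502-z repeat: GATACgGATACcggtacgcGATAC

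A single entry, a predicted one, aligned with a member over at least 16 bases with at most 3 mismatches. It matched miR5381-z over 18 bases without a mismatch and begins 3 bases upstream of it. The pair is printed because reads of one stretch of RNA could be divided between them; the capitals mark the shared bases.
miR5381-z overlap: CAAGATCTGTGGCTCCGAggt
overlapping predicted entry: agcCAAGATCTGTGGCTCCGA
miR5502-z had no such neighbour, also with up to 5 mismatches.

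In stem, miR5381-z was scarce in ROC22 and abundant in GT86-887. The late ROC22 stem libraries held 9, 27 and 58 tags, against 984, 1282 and 754 tags in late GT86-887 stem. The early ROC22 stem libraries held 59, 61 and 64 tags, against 1191, 678 and 1681 tags in early GT86-887 stem. The genotypes did not overlap, at 14.4 to 98.6 CPM in the 6 ROC22 libraries and 999.7 to 2527 CPM in the 6 GT86-887 libraries. CPM stands for an entry's tags relative to its library's tags over the entries that passed a low-count filter, after TMM scaling. That scaling sets libraries to a common level through the bulk of their entries. The means were 63.2 ± 30.9 CPM in ROC22 and 1412 ± 581 CPM in GT86-887 (SD, n = 6 each), a level 22.3 times higher in GT86-887. The fitted log2 fold change, ROC22 over GT86-887, was -4.69 ± 0.45 (SE) over both stages, -4.98 ± 0.64 at the late stage and -4.39 ± 0.62 at the early stage. Without TMM scaling, and relative to the tags of all entries, the ranges were 12.3 to 332 plain CPM in ROC22 and 933 to 3055 in GT86-887. These did not overlap either.

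miR5502-z showed the opposite arrangement in stem. The late ROC22 stem libraries held 14, 19 and 29 tags, against 0, 0 and 2 in late GT86-887 stem. The early ROC22 stem libraries held 26, 30 and 33 tags, against 2, 0 and 0 in early GT86-887 stem. All 6 ROC22 libraries lay above all 6 GT86-887 libraries, and 4 of the 6 GT86-887 libraries had no tag. Shares of all entries without overlap are not given for stem or leaf. The separation of either member is therefore not read as particular to it. The means were 34.7 ± 8.90 CPM in ROC22 and 0.98 ± 1.54 CPM in GT86-887 (SD, n = 6 each). Summed tags were 151 in ROC22 and 4 in GT86-887, a ratio of 42.2 relative to effective library size, with an exact 95% interval of 16.2 to 157 that covers counting error only. The fitted log2 fold change was 4.89 ± 0.71 over both stages, 4.64 ± 1.002 at the late stage and 5.14 ± 0.9996 at the early stage. It was 6.32 without the first early and 6.20 without the third late GT86-887 stem library, the pair of libraries that held the 4 tags.

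**Figure D1:**
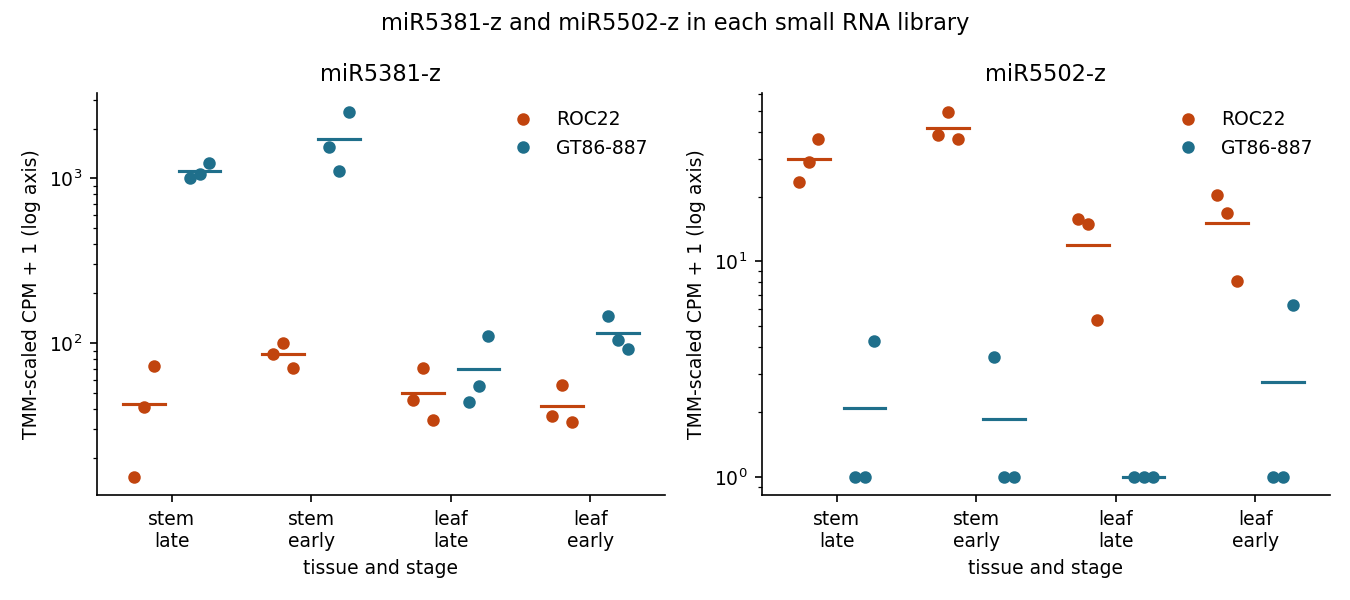
Level of miR5381-z (left) and miR5502-z (right) in each of the 24 small RNA libraries, as TMM-scaled CPM + 1 on a log axis, by tissue and stage (x axis) and genotype (colour); each point is a library and each bar the mean of 3. In stem the genotypes separate for both entries, with ROC22 the lower for miR5381-z (14.4 to 98.6 against 999.7 to 2527 CPM) and the higher for miR5502-z.

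Among the 215 entries tested in stem, 73 passed an adjusted p of 0.05 between the genotypes (34.0%), 31 of them higher and 42 lower in ROC22. Scaled by library totals the split was 54 higher and 19 lower. By size miR5381-z took place 9 of the lower entries. A predicted entry stood just above it at -5.61 ± 0.60 and another just below it at -3.98 ± 0.56 (log2 fold change ± SE). By size miR5502-z took place 5 of the higher entries, between predicted entries at 5.66 ± 0.43 and 4.19 ± 0.80. The members were thus not the extremes of the contrast, and the values chose them, so nothing is read from these places. By mean level, miR5381-z ranked 87 of 844 in ROC22 stem and 20 in GT86-887 stem. miR5502-z ranked 115 in ROC22 stem and 405 in GT86-887 stem.

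**Figure D2:**
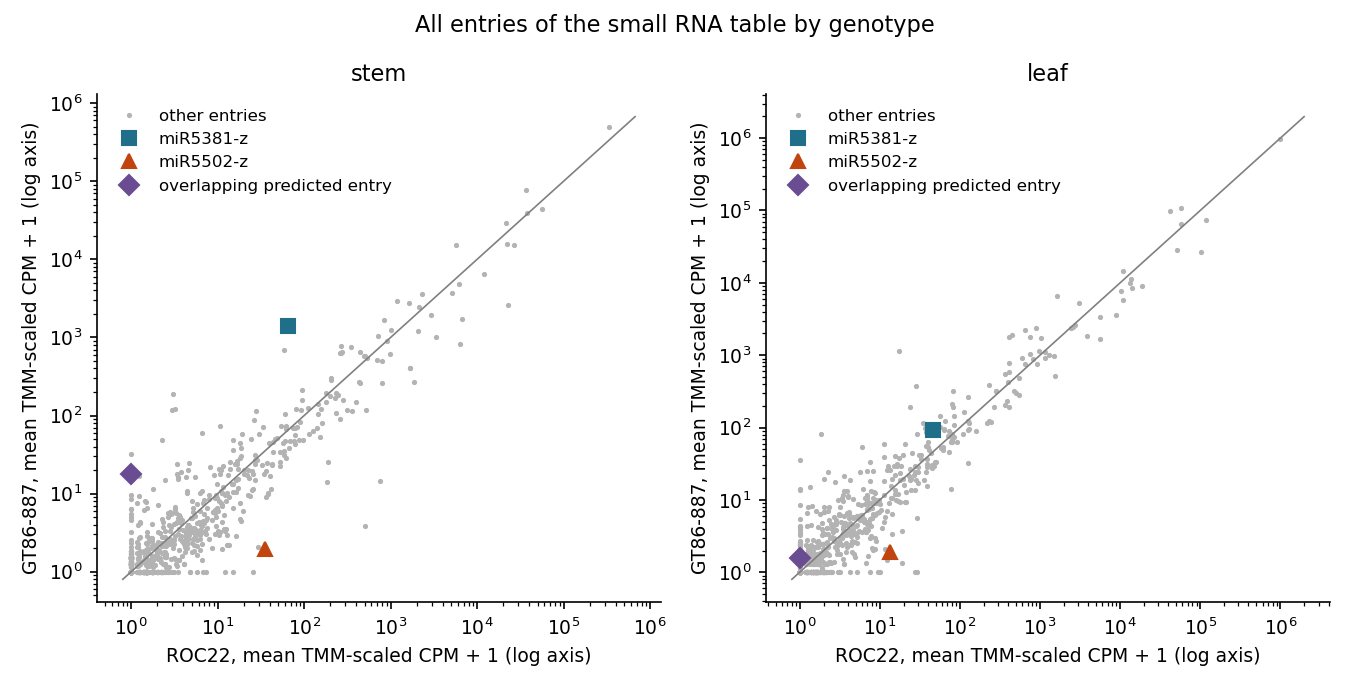
Mean level of each of the 844 entries in ROC22 (x axis) and GT86-887 (y axis), as TMM-scaled CPM + 1 on log axes, in stem (left) and leaf (right), with the line of equal level. In stem miR5381-z (63.2 against 1412 CPM) and the overlapping predicted entry lie above the line and miR5502-z below it, while in leaf miR5381-z (44.7 against 90.96 CPM) lies nearer to the line.

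The overlapping predicted entry followed miR5381-z in stem. It held no tag in any of the 6 ROC22 stem libraries, against 14, 12 and 17 tags in late and 11, 9 and 13 tags in early GT86-887 stem. Set against a floor of 3 tags over the ROC22 group, its level was at least 22.6-fold lower in ROC22 stem. In leaf it held no tag in ROC22 and 2 tags, both in the third early library, in GT86-887. Its 18 shared bases mean that it is not independent of miR5381-z, and it is reported as a description.

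Leaf libraries were not used to choose the members, and there both differences had the direction seen in stem. For miR5381-z the late ROC22 leaf libraries held 27, 35 and 23 tags, against 22, 23 and 51 tags in late GT86-887 leaf. The early ROC22 leaf libraries held 29, 38 and 27 tags, against 61, 111 and 52 tags in early GT86-887 leaf. The early groups did not overlap in CPM and the late groups did. The means were 44.7 ± 14.7 CPM in ROC22 and 90.96 ± 37.7 CPM in GT86-887 (SD, n = 6 each). miR5381-z was lower in ROC22 leaf by a log2 fold change of -0.85 ± 0.30 (SE), with an adjusted p of 0.0282 in edgeR's quasi-likelihood test. Of the 180 entries tested in leaf, 75 passed (41.7%), 41 higher and 34 lower, so a pass was common in this contrast. At the early stage the change was -1.28 ± 0.42 (adjusted p = 0.0436, edgeR), where 31 of 180 entries passed (17.2%). That call was lost when any of 5 of the 6 early leaf libraries was left out (adjusted p up to 0.121, edgeR) and in the fit of both tissues together (0.0543). At the late stage it was -0.42 ± 0.43 (adjusted p = 0.511, edgeR), where 32.2% of entries passed.

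miR5502-z had too few leaf tags to enter the fit over all entries. The late ROC22 leaf libraries held 9, 7 and 3 tags, against 0 in each late GT86-887 leaf library. The early ROC22 leaf libraries held 16, 11 and 6 tags, against 0, 0 and 3 in early GT86-887 leaf. Each ROC22 library held tags and 5 of 6 GT86-887 libraries held none, with an overlap through the third early GT86-887 library. The means were 12.5 ± 5.63 CPM in ROC22 and 0.88 ± 2.16 CPM in GT86-887 (SD, n = 6 each). The mean of log2(CPM + 1) was 3.18 higher in ROC22 leaf. The exact permutation test of 6 against 6 libraries gave a two-sided, unadjusted p of 0.00433, where the smallest possible p is 0.00216. The permutation test was not run on other entries, so it has no share of entries beside it. In the leaf fit 41.7% of 180 entries passed between genotypes after adjustment. Summed tags were 52 in ROC22 and 3 in GT86-887, a ratio of 14.4 with an exact 95% interval of 4.67 to 72.2 for counting error. With 3 libraries a side, either stage alone gave p = 0.1, the smallest that the exact permutation test allows.

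The stem difference in miR5381-z was larger than the leaf one by a log2 value of -3.53 ± 0.50, given as a description because the stem contrast enters it. For miR5502-z the same quantity was 0.56 ± 1.54, an error that spans differences in either direction.

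The 8 groups ordered as follows for miR5381-z. Early GT86-887 stem was highest at 1728 ± 727 CPM and late GT86-887 stem next at 1097 ± 125 CPM, with overlapping libraries. After a gap came early GT86-887 leaf at 113 ± 28.5, early ROC22 stem at 84.5 ± 14.4 and late GT86-887 leaf at 68.7 ± 35.4 CPM. Late ROC22 leaf at 49.0 ± 18.5, late ROC22 stem at 42.0 ± 28.7 and early ROC22 leaf at 40.5 ± 12.2 CPM were lowest. From the third place down each group overlapped the next, so GT86-887 stem stood apart from the other 6 groups. For miR5502-z early ROC22 stem was highest at 40.7 ± 6.83 CPM. Late ROC22 stem followed at 28.8 ± 6.74 CPM, with early ROC22 leaf at 14.1 ± 6.23 and late ROC22 leaf at 10.99 ± 5.76 CPM after it. Each of the ROC22 stem groups lay apart from the next group, and the 4 GT86-887 groups lay between 0 and 1.76 CPM (SD over n = 3 throughout).

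The comparison of tissues holds the stem values that chose the members, so it is given as a description without a test. Stem libraries averaged 738 ± 806 CPM of miR5381-z and leaf libraries 67.8 ± 36.4 CPM (SD, n = 12 each), a range that holds both genotypes. The fitted log2 difference, stem over leaf as a mean over genotypes and stages, was 2.20 ± 0.25. In this comparison 205 of 285 entries passed (71.9%). Of these 118 were higher in stem and 87 lower, beside a median over all entries of 0.61. Scaled by library totals the split was 171 higher and 62 lower. Within genotypes the difference was 0.43 ± 0.35 in ROC22 (2.09 with library totals) and 3.96 ± 0.38 in GT86-887, so the mean over genotypes mostly reflects GT86-887. The 12 stem libraries averaged 17.8 ± 18.6 CPM of miR5502-z, against 6.70 ± 7.31 CPM for the 12 leaf libraries, a difference of 1.18 ± 0.73. It was 2.03 ± 0.79 without the third early GT86-887 leaf library, which held 3 tags. Within genotypes it was 1.46 ± 0.52 in ROC22 and 0.90 ± 1.02 in GT86-887.

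The scaling sets part of the difference between tissues. TMM factors ran from 0.852 to 3.37 in stem and 0.533 to 0.875 in leaf. Scaling by library totals alone moved the median of all entries by 1.22 in stem over leaf and by 0.68 in the stem genotype contrast (log2). Relative to that median, miR5381-z lay at 1.70 with library totals and 1.59 with TMM in stem over leaf. Within ROC22 alone it lay at -0.26 relative to the median with TMM and at no distance (-0.00094) with library totals. miR5502-z lay at 0.45 with library totals and 0.57 with TMM, and its difference was 2.27 with library totals. In the stem genotype contrast miR5381-z lay at -4.57 and -4.69, and miR5502-z at 4.94 and 4.89, relative to the median with library totals and with TMM.

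Neither member passed for stage. In stem miR5381-z averaged 42.0 ± 28.7 CPM late and 84.5 ± 14.4 CPM early in ROC22, and 1097 ± 125 CPM late and 1728 ± 727 CPM early in GT86-887 (SD, n = 3). The late over early log2 change was -0.84 ± 0.39 over both genotypes (adjusted p = 0.217, edgeR), -1.13 ± 0.57 in ROC22 (0.213, with 6.98% of entries passing) and -0.54 ± 0.54 in GT86-887 (0.666, with 0% passing). For miR5502-z it was -0.43 ± 0.85 (adjusted p = 0.850, edgeR), a mean that leans on 2 tags early and 2 late in GT86-887 stem. Within ROC22 the change of miR5502-z was -0.69 ± 0.70 (adjusted p = 0.563, edgeR). Only 17 of 215 stem entries passed for stage (7.91%). The third late ROC22 stem library stood apart, with a mean correlation of 0.897 to its own group and 0.953 to early ROC22 stem across entries. It held 58 tags of miR5381-z, where the other late ROC22 stem libraries held 9 and 27. Without it the stage change of miR5381-z was -1.20 ± 0.33 and passed (adjusted p = 0.0210, edgeR), as did that within ROC22 (-1.74 ± 0.52, adjusted p = 0.0185), and 46 entries passed in all. Without the second early ROC22 or the second late GT86-887 stem library no entry passed. In leaf the stage change of miR5381-z was -0.08 ± 0.30 (adjusted p = 0.911, edgeR), where 64 of 180 entries passed (35.6%). miR5502-z in ROC22 leaf differed by -0.38 in log2(CPM + 1), late over early (p = 0.5, exact permutation test of 3 against 3).

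The stage change did not pass a test of difference between the genotypes. In stem that difference was -0.59 ± 0.77 for miR5381-z (adjusted p = 0.653, edgeR) and -0.50 ± 1.97 for miR5502-z (0.860). The value for miR5502-z leans on 4 tags in GT86-887 stem and ran from -3.36 to 2.21 when a library was left out. It therefore cannot decide whether the stage change of miR5502-z differs between the genotypes. No stem entry passed in edgeR or DESeq2 (0%), with 35 of 215 at an unadjusted p below 0.05 in edgeR, while 68 passed without the third late ROC22 stem library and neither member was among them. In leaf it was 0.86 ± 0.60 for miR5381-z (adjusted p = 0.541, edgeR), where 11 of 180 entries passed (6.11%).

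Entries with the pattern most like a member were taken by Pearson's r of log2(CPM + 1) over the 24 libraries, among 194 entries with a mean of at least 10 CPM. These libraries share genotype and tissue, so r mainly reflects the group levels and has no p. The 5 most like miR5381-z were 4 predicted entries and miR6234-y. They are printed with their r and with the seed in capitals, to show which are related in sequence.
predicted entry, r = 0.928: tCACTACCagttaaagccatgaac
predicted entry, r = 0.871: aGAAGGACtttgtgcagtgcatat
predicted entry, r = 0.864: cGCCGGCGcacgagctcgccc
predicted entry, r = 0.843: aTGCACTGcacaaagtccttcttg
miR6234-y, r = 0.828: tTAGCGTCaagagacgaacacact
The predicted entries with r of 0.871 and 0.843 are complementary over 22 bases without a mismatch, and none of the 5 overlaps miR5381-z. The predicted entry with r = 0.928 averaged 2.04 ± 1.71 CPM in ROC22 stem and 188 ± 100.3 CPM in GT86-887 stem (SD, n = 6 each). miR6234-y (r = 0.828) averaged 56.9 ± 39.5 CPM in ROC22 stem and 686 ± 488 CPM in GT86-887 stem. The other 3 had r from 0.843 to 0.871, with 1.24 to 2.24 CPM in ROC22 stem and 47.6 to 120 CPM in GT86-887 stem. All 5 were lower in ROC22 than in GT86-887 leaf by mean level, at 0 to 16.5 CPM in ROC22 and 3.25 to 37.2 CPM in GT86-887. The leaf libraries entered r, so this direction follows in part from the choice.

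The 5 entries most like miR5502-z included miR530-x and miR530-z, of a conserved miRNA family of flowering plants.
predicted entry, r = 0.867: gATGTGTGattcatggactggccc
miR530-x, r = 0.835: cTGCATTTgcacctgcacctc
miR530-z, r = 0.796: tGCATTTGcacctgcacctct
predicted entry, r = 0.760: tCGAGTCGgtcggttctcgcc
predicted entry, r = 0.712: aGCACTCTgtgactttggctc
miR530-x and miR530-z share 20 bases without a mismatch, so their counts may come from the same stretch of RNA. The predicted entry with r = 0.867, 24 nt long like miR5502-z, averaged 755 ± 221 CPM in ROC22 stem and 13.5 ± 10.7 CPM in GT86-887 stem (SD, n = 6 each). miR530-z (r = 0.796) averaged 22805 ± 8977 CPM in ROC22 stem and 2579 ± 2302 CPM in GT86-887 stem, and miR530-x (r = 0.835) 6357 ± 4498 CPM and 817 ± 509 CPM. The predicted entry with r = 0.760 averaged 504 ± 456 CPM in ROC22 stem and 2.90 ± 3.31 CPM in GT86-887 stem. The predicted entry with r = 0.712 averaged 183 ± 79.9 CPM in ROC22 stem and 13.0 ± 12.003 CPM in GT86-887 stem. The level of miR5502-z in ROC22 stem, 34.7 CPM, lay below all 5.

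**Figure D3:**
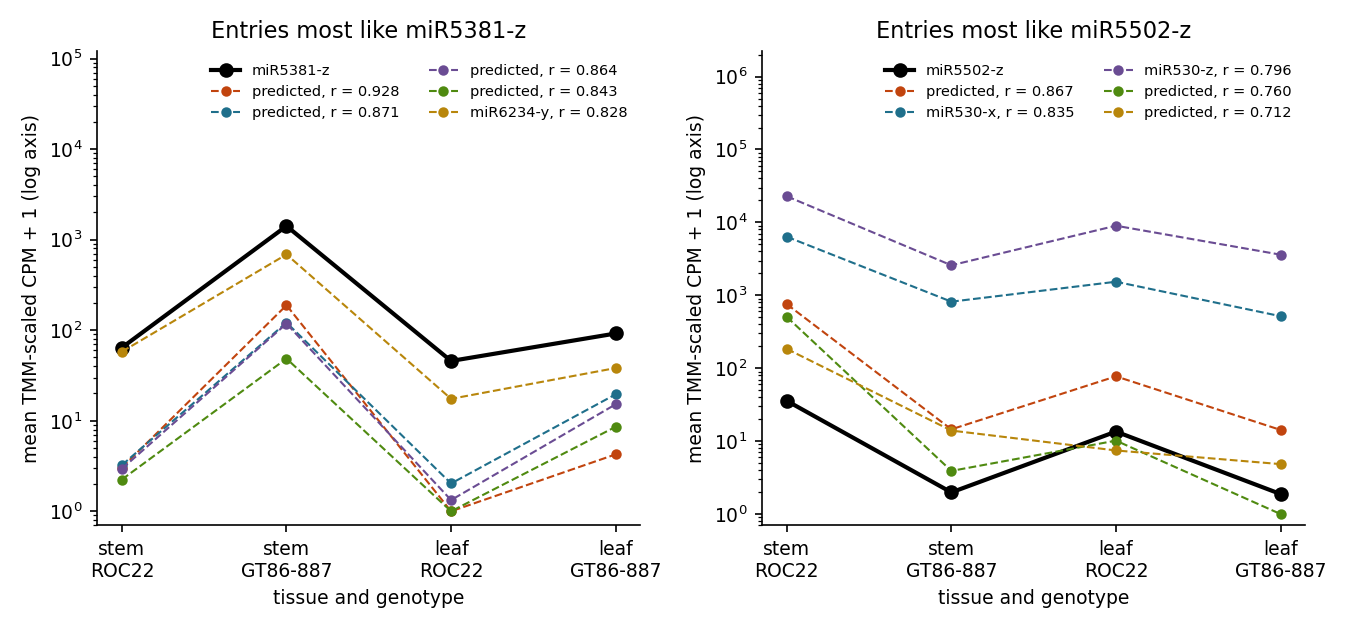
Mean level of each member (black, solid line) and of the 5 entries most like it (dashed lines), as TMM-scaled CPM + 1 on a log axis, in ROC22 and GT86-887 stem and leaf; each point is the mean of 6 libraries and lines only join points of an entry. The entries like miR5381-z peak in GT86-887 stem, and those like miR5502-z, among them miR530-z at 22805 CPM, are highest in ROC22 stem.

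Entries that share a length, a first base or a range of numbers with a member are given beside all entries, as a description. Of the 97 other entries of 21 nt tested in stem, 16 were higher and 22 lower in ROC22 (39.2%, median log2 fold change -0.12). Of the 53 other entries of 24 nt, 5 were higher and 9 lower (26.4%, median 0.14), beside 34.0% and a median of 0.0029 over all 215. Of the 33 others that start with C, 6 were higher and 6 lower, and of the 31 others that start with G, 5 were higher and 5 lower. The table held 99 entries numbered from miR5000 to miR5999, the range of both members. Of the 16 others of these tested in stem, 2 were higher and 3 lower (31.2%). In leaf 16 were tested, with 3 higher and 2 lower (31.2%, against 41.7% of all entries). By length, leaf entries of 21 nt passed between genotypes in 50.0% (29 higher and 16 lower in ROC22) and those of 24 nt in 25.9%. By first base, leaf entries passed in 33.3% for C and 21.7% for G. For stage in leaf the other entries that start with C passed in 55.6%, against 35.6% of all entries. In stem over leaf the other 24 nt entries had 39 higher and 10 lower with a median of 1.23, against a median of 0.61 over all entries.

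The degradome table joined miR5381-z with 4 unigenes through 9 tags in all. c137378.graph_c0 had 3 tags in the second ROC22 leaf library, 1 in the second ROC22 stem library and 2 in the first GT86-887 leaf library. c93561.graph_c1, c140812.graph_c0 and c129025.graph_c0 had 1 tag each, all in the second ROC22 stem library. That library thus listed all 4 pairs, with 249 of all 871 pairs listed there. None of the 4 pairs was listed in either GT86-887 stem library, where 222 and 238 of all 871 pairs were listed, so most pairs of the table were missing there as well. The libraries have no replicate for a combination, and no pair reached 5 tags in any library. Over the whole degradome table, the 871 pairs had a median of 4 tags each, and 140 of them (16.1%) had a single tag. None of the 4 unigenes was paired with another entry. miR5502-z was among the 477 entries without a pair, as was the predicted entry that overlaps miR5381-z. The table gives no cleavage site, and no sequence of the unigenes was used here, so no target site is printed.

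The 4 unigenes were measured in all 36 mRNA libraries, and their identifiers carry no gene name. In stem 2 of the 4 passed between genotypes, 1 higher and 1 lower in ROC22, where 19926 of 36199 unigenes passed (55.0%, with 26.6% higher and 28.4% lower). In leaf 3 of the 4 passed, 2 higher and 1 lower, where 19398 of 37678 passed (51.5%, with 25.8% higher and 25.7% lower). Both shares are near the background and are not read as a result about the pairs. miR5381-z itself was lower in ROC22 in both tissues, and the unigenes did not share a direction.

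c93561.graph_c1 was nearly confined to ROC22 in both tissues. In ROC22 stem it held 425, 354 and 268 reads early, 398, 332 and 387 at the middle stage and 243, 254 and 296 late. In the 9 GT86-887 stem libraries it held 3 reads in all, 1 early and 2 in a middle library. In ROC22 leaf it held 123, 148 and 145 reads early, 134, 135 and 119 at the middle stage and 152, 100 and 118 late, against 1 read in the 9 GT86-887 leaf libraries. Every ROC22 library lay above every GT86-887 library of its tissue. Shares of all unigenes without overlap are not given here or below, so no such separation is read as particular to these unigenes. The summed reads were 2957 in ROC22 stem and 3 in GT86-887 stem, a ratio of 1052 relative to library size (exact 95% interval 360 to 5103, counting error only). In leaf they were 1174 in ROC22 and 1 in GT86-887, a ratio of 1049 (interval 188 to 41453). Both differences passed, with adjusted p = 4.14e-11 in stem and 3.45e-10 in leaf (edgeR). The unigene could pass the low-count filter only through its ROC22 libraries. Its only degradome tag also came from a ROC22 stem library. These p-values therefore add no support to the read counts above. The deposited FPKM values, which are per length, ran from 9.47 to 14.3 in ROC22 stem and from 0 to 0.09 in GT86-887 stem. Within ROC22 stem exceeded leaf by a log2 difference of 1.15 ± 0.16 (adjusted p = 1.09e-06, edgeR), where 70.8% of 42119 unigenes passed. Late over early within ROC22 was -0.48 ± 0.28 in stem (adjusted p = 0.266, edgeR) and -0.25 ± 0.26 in leaf (0.535), contrasts in which 18.2% and 28.3% of unigenes passed.

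c137378.graph_c0, the unigene with the most tags, differed between genotypes in leaf and not beyond its error in stem. In early leaf it held 53.1, 41.8 and 71.6 CPM in ROC22, against 12.8, 11.9 and 15.0 CPM in GT86-887. In middle leaf it held 29.7, 26.5 and 29.6 CPM in ROC22, against 36.4, 22.8 and 24.6 CPM in GT86-887. In late leaf it held 39.7, 25.8 and 39.0 CPM in ROC22, against 18.4, 12.6 and 12.8 CPM in GT86-887. The genotypes were apart at the early and the late stage and overlapped at the middle stage. Over the stages it was higher in ROC22 leaf by 1.14 ± 0.13 (log2 fold change ± SE, adjusted p = 3.32e-06, edgeR). By stage this was 2.08 ± 0.24 early (1.17e-05), 0.06 ± 0.23 middle (0.865) and 1.28 ± 0.23 late (0.000732), where 33.8%, 27.0% and 30.5% of unigenes passed. In stem it averaged 17.9 ± 5.49 CPM in ROC22 and 17.1 ± 4.69 CPM in GT86-887 (SD, n = 9 each), a difference of 0.01 ± 0.13 (adjusted p = 0.950, edgeR). The stem difference minus the leaf difference was -1.07 ± 0.19 and passed (adjusted p = 0.000145, edgeR), as did 9802 of 42119 unigenes (23.3%). It was the only one of the 4 to pass there, a share near the background that is not read as a result about the pairs.

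c140812.graph_c0 was lower in ROC22 as a mean over the stages in both tissues, but not at the late stage in stem. In stem it averaged 21.2 ± 4.13 CPM in ROC22 and 26.6 ± 3.52 CPM in GT86-887 (SD, n = 9 each), a log2 fold change of -0.37 ± 0.09 (adjusted p = 0.00262, edgeR). In leaf it averaged 25.3 ± 5.15 CPM in ROC22 and 36.5 ± 3.81 CPM in GT86-887, a change of -0.53 ± 0.07 (adjusted p = 1.49e-05, edgeR). By stage the change in stem was -0.57 ± 0.16 early (adjusted p = 0.0104, edgeR), -0.52 ± 0.16 at the middle stage (0.0232) and -0.02 ± 0.16 late (0.930), where 37.4%, 25.9% and 32.2% of unigenes passed. Late stem libraries held 23.0, 30.9 and 22.3 CPM in ROC22, against 21.3, 24.3 and 29.4 CPM in GT86-887, and overlapped. In leaf the change was -0.86 ± 0.13 early (adjusted p = 0.000110, edgeR), -0.40 ± 0.12 at the middle stage (0.0256) and -0.33 ± 0.12 late (0.0553). The libraries of the genotypes overlapped over the 9 against 9 in either tissue. In early leaf they were apart, at 18.2 to 19.9 CPM in ROC22 and 33.9 to 35.9 CPM in GT86-887. They were also apart in late leaf and in early and middle stem, and overlapped in middle leaf.

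c129025.graph_c0 did not pass between genotypes as a mean over the stages, at -0.27 ± 0.13 in stem (adjusted p = 0.0860, edgeR) and -0.17 ± 0.10 in leaf (0.170). The leaf mean joined stages of opposite sign. By stage leaf gave 0.33 ± 0.18 early (adjusted p = 0.188, edgeR), -0.38 ± 0.18 middle (0.122) and -0.47 ± 0.17 late (0.0515). Late leaf libraries were apart, at 41.0 to 53.5 CPM in ROC22 and 61.2 to 73.3 CPM in GT86-887. In stem it averaged 35.7 ± 13.8 CPM in ROC22 and 41.0 ± 14.3 CPM in GT86-887 (SD, n = 9 each). By stage stem gave -0.56 ± 0.22 early (adjusted p = 0.0589, edgeR), -0.20 ± 0.22 middle (0.558) and -0.05 ± 0.22 late (0.884). Early stem libraries were apart, at 27.5 to 30.1 CPM in ROC22 and 32.1 to 58.8 CPM in GT86-887. Those of middle and late stem overlapped. The stem difference passed without the second early, the first middle or the second late GT86-887 library (adjusted p = 0.0494, 0.0422 and 0.0469, edgeR) and with library totals (0.0258). The leaf difference passed without the first middle GT86-887 leaf library (adjusted p = 0.0302, edgeR).

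As a mean over the genotypes, 2 of the 4 unigenes rose in stem and 2 in leaf from early to late. Of all unigenes 29.1% passed in stem (14.2% higher) and 39.8% in leaf (19.5% higher). The largest of these changes was that of c129025.graph_c0 in leaf. It averaged 9.35 ± 1.90 CPM at the early stage, 56.9 ± 13.3 CPM at the middle stage and 59.1 ± 12.6 CPM at the late stage (SD, n = 6 each). Its late over early change in leaf was 2.67 ± 0.13 (adjusted p = 1.15e-09, edgeR), of which 2.59 ± 0.13 lay between early and middle (30.2% of unigenes passed). The late over early rise in leaf passed in ROC22 (2.27 ± 0.19, adjusted p = 5.09e-07, edgeR) and in GT86-887 (3.07 ± 0.19, 9.97e-08). In stem c129025.graph_c0 rose between middle and late, by 0.97 ± 0.16 (adjusted p = 0.00366, edgeR, where 6.59% of unigenes passed), and by 0.61 ± 0.16 between early and late (0.00855). Late over early in stem was 0.86 ± 0.22 in ROC22 (adjusted p = 0.0145, edgeR) and 0.35 ± 0.22 in GT86-887 (0.320). c137378.graph_c0 rose in stem by 0.57 ± 0.16 between early and late (adjusted p = 0.0149, edgeR) and did not pass in leaf (-0.25 ± 0.16, 0.248). Its stem change was 0.80 ± 0.23 in ROC22 (adjusted p = 0.0242, edgeR) and 0.33 ± 0.23 in GT86-887 (0.365). The leaf mean joined opposite signs, at -0.65 ± 0.23 in ROC22 (adjusted p = 0.0418, edgeR) and 0.15 ± 0.23 in GT86-887 (0.686). c140812.graph_c0 rose in leaf by 0.42 ± 0.09 (adjusted p = 0.00128, edgeR), with 0.13 ± 0.11 in stem (0.441). Its leaf change was 0.68 ± 0.13 in ROC22 (adjusted p = 0.000781, edgeR) and 0.15 ± 0.12 in GT86-887 (0.421). Within genotypes, 18.2% of unigenes passed in ROC22 stem, 15.8% in GT86-887 stem, 28.3% in ROC22 leaf and 25.3% in GT86-887 leaf. For none of these 3 unigenes did the stage change pass a test of difference between the genotypes (adjusted p 0.162 to 0.623, edgeR). miR5381-z did not pass for stage in either tissue, and its libraries had no middle stage to set beside these.

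**Figure D4:**
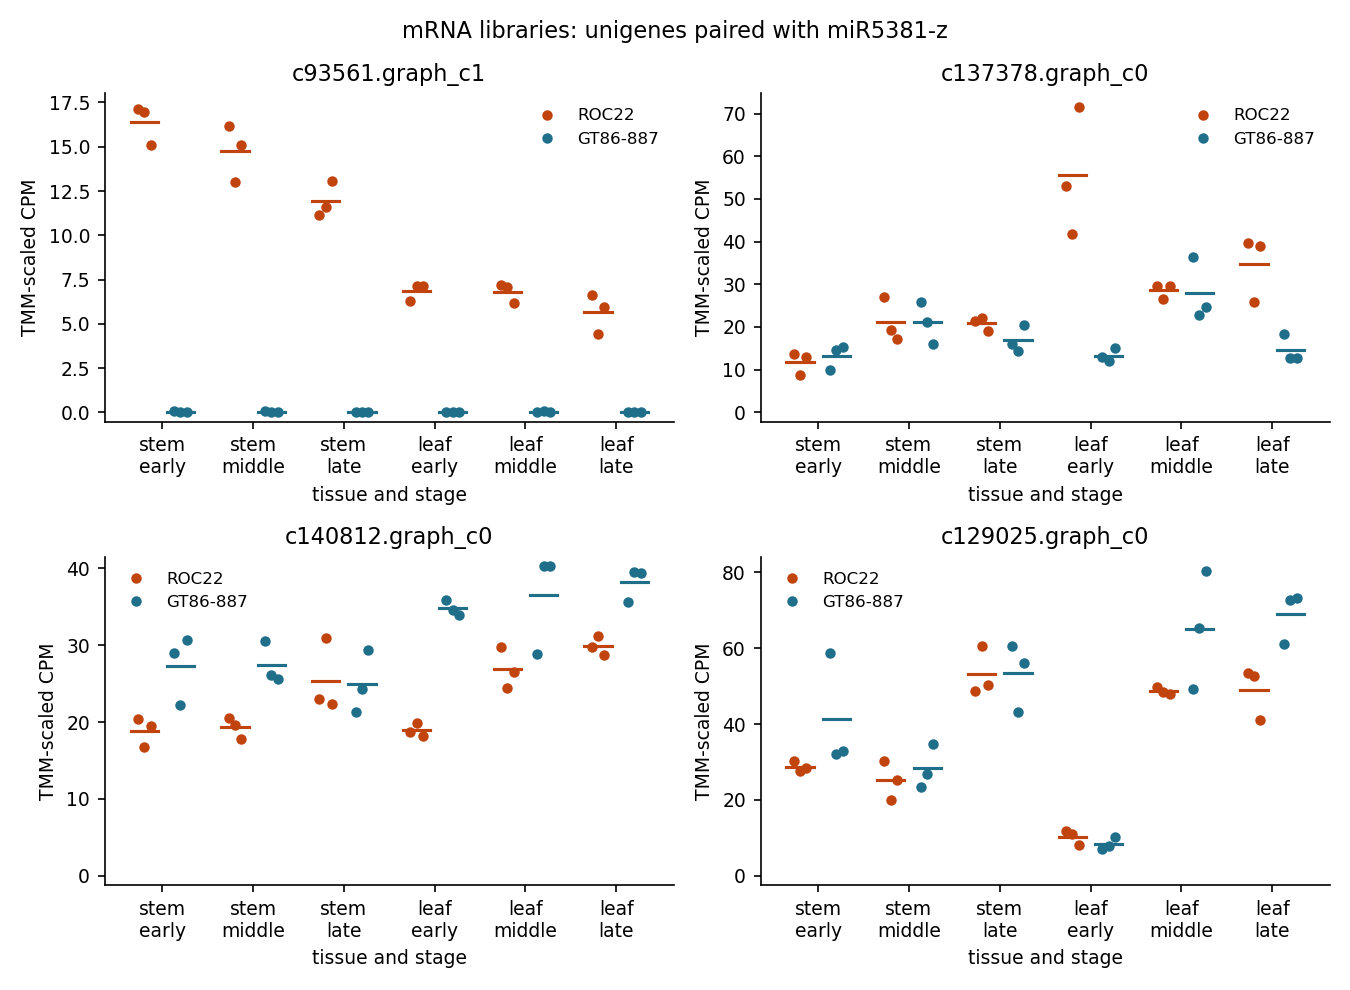
Level of the 4 unigenes paired with miR5381-z in each of the 36 mRNA libraries, as TMM-scaled CPM, by tissue and stage (x axis) and genotype (colour); each point is a library and each bar the mean of 3. c93561.graph_c1 is at or near 0 in every GT86-887 library, c137378.graph_c0 is apart between genotypes in early and late leaf, and c129025.graph_c0 is low in early leaf of both genotypes (9.35 CPM).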

How the data were processed

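The members and lists were chosen with earlier results of these data known. Per the labels' protocols, RNA of 18 to 30 nt was selected on gels for small RNA, while degradome libraries took up RNA pieces that carry a 5′ monophosphate. What the authors deposited is a count and an FPKM value per unigene and library, and a count and a TPM value per small RNA entry; TPM is written as 0.01 where the count is 0. FPKM and TPM were not tested. The deposited degradome table gives tag numbers, and its normalised columns repeat them. No source used here names the aligner, assembler or target caller. In 4 degradome libraries the title code and the growth phase disagree, so no stage is read from them. The tests on deposited counts used edgeR 4.0.16, under R 4.3.3 (TMM, filterByExpr, common and trended dispersion, quasi-likelihood test, Benjamini-Hochberg adjustment over all features tested), with a threshold of 0.05, stem and leaf fitted apart and a joint fit for comparisons between tissues; the procedure was tested on simulated data. An error after ± is an SE for a log2 fold change and an SD for a level. miR5502-z failed the low-count filter in leaf and was tested there by an exact permutation test (SciPy 1.17.1, pseudocount 1), in place of edgeR. Named items were the members, their degradome unigenes, sequence neighbours, the 5 most like entries and those next to each member in size. No libraries were identical. The alternatives were RLE scaling, DESeq2 1.42.0, no low-count filter, a replicate block, a joint fit, leaving out each library and, added after the scaling factors were seen, library totals.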

Additional observations from a re-analysis of the deposited data

Results flagged for a closer look

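The genotype difference of c137378.graph_c0 differed between tissues. It was 0.01 ± 0.13 in stem and 1.14 ± 0.13 in leaf (log2 fold change ± SE, ROC22 over GT86-887), and the stem difference minus the leaf difference was -1.07 ± 0.19 (adjusted p = 0.000145, edgeR). The leaf mean joined 2.08 ± 0.24 early, 0.06 ± 0.23 at the middle stage and 1.28 ± 0.23 late. In the contrast between tissues 1 of the 4 paired unigenes passed, beside 23.3% of 42119 unigenes. That share is near the background and is not read as a result about the pairs. Single values were not tested for distance from their group, since each group has 3 libraries.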

How the results depend on the processing

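Directions held in all alternatives for the tested leaf genotype difference of miR5381-z (-1.16 to -0.81, adjusted p 0.00230 to 0.0397) and of miR5502-z (2.67 to 3.62 as a difference of mean log2(CPM + 1), and 4.37 and 4.49 as an edgeR log2 fold change without a filter and in the joint fit). With library totals, a scaling added after the data were seen, the stem genotype value of miR5381-z was -3.89 and the stem over leaf value of miR5502-z 2.27; both moved with the median of all entries. Leaving out each library in turn gave -1.20 to -0.64 for the stem stage change of miR5381-z, 4.59 to 6.32 for the stem genotype value of miR5502-z and 0.47 to 2.03 for its stem over leaf value. At a minimum of 5 tags in a single library no degradome pair was left (0), and at up to 5 mismatches miR5381-z had 3 sequence neighbours, with miR7732-x and miR3627-y added. The numbers of paired unigenes that passed stayed within 1 of the main ones. The count of stem entries that passed for stage, 17, was 0 with the replicate block, 28 in the joint fit and 0 to 46 without a library; for genotype by stage in stem, 0 became 11 without a filter, 17 in the joint fit and up to 68 without a library, and in leaf 11 became 6 at the fewest. The causes were not tested. Replicate numbers did not pair the small RNA libraries (correlations of same-numbered libraries -0.378 to 0.151). The replicate block changed no call on the members or unigenes: the leaf genotype value of miR5381-z was -0.89 (adjusted p = 0.0347, edgeR). In mRNA leaf 15 of 18 libraries correlated best with their own number. Of the 45 same-numbered pairs there, 21 had a correlation over 0.1, the highest 0.4. This is a hint of pairing from the data only, and the main fits leave it out. Depth limits miR5502-z, which rests on 210 tags in all.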
